A study of Mus musculus with 1 sample.

Results

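The IGF1 axis is taken here as a secreted growth factor, its signalling receptor, the receptor that removes IGF-II and a family of secreted binding proteins. The 9 genes described here, *Igf1*, *Igf1r*, *Igf2r*, *Igfbp2*, *Igfbp3*, *Igfbp4*, *Igfbp5*, *Igfbp6* and *Igfbp7*, were chosen by symbol among the 32285 genes listed in the count table of a mouse pancreas library. All 9 passed the minimum of 100 unique molecular identifiers (UMIs, which count captured RNA molecules).

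The study examined what loss of the sterol sensor chaperone SCAP does to the pancreas, using *Pdx1-Cre* to delete a floxed *Scap* gene in pancreatic cells. Only the library labelled *Scap* f/f (titled wildtype, source pancreas) was analysed here, so no comparison of genotypes was made. It is 1 droplet library of dissociated pancreas pooled from 5 to 6 mice aged 2 weeks, males and females together by the study's methods, and no mouse can be told from another. *Scap* itself was measured at 29.2 CPM (95% interval 27.7 to 30.8), where CPM is the number of UMIs of a gene for every 1000000 UMIs of the cells pooled.

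IGF-I is produced by liver and by many stromal cells and acts through the receptor tyrosine kinase encoded by *Igf1r*. The product of *Igf2r*, the cation-independent mannose 6-phosphate receptor, carries lysosomal enzymes and removes IGF-II. IGF binding proteins hold IGFs in tissue fluid, and depending on the protein and on its cleavage they withhold the ligand or deliver it, while IGFBP7 binds IGFs only weakly.

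Of 11789 barcodes, 10947 (92.9%) were retained, each with over 800 UMIs, less than 100000 UMIs and a mitochondrial share below 15%. They had a median of 2650 UMIs. Cells were gated on marker genes that did not include the 9 genes, and 8802 cells fell in 10 classes of at least 50 cells. These were 5460 fibroblast-like, 1023 acinar-like, 766 T cell-like, 423 erythroid-like, 417 mesothelial-like, 297 B cell-like, 167 blood endothelial-like, 132 mural-like (smooth muscle and pericyte), 66 ductal-like and 51 dendritic-like cells. Every marker of each class had at least 3 UMIs in it, but cells were gated on these markers, so this does not test the class names. Among the 10 leading genes of the ductal-like class *Spp1* was the 1 ductal marker. The fibroblast-like and dendritic-like classes each had 2 of their markers among their 10 leading genes. A further 810 barcodes (7.40%) passed gates of 2 lineages and were left out. Levels are CPM over the cells of a class, with an exact 95% Poisson interval that covers counting error only. As there was 1 library, nothing was tested, fewer cells and less RNA per cell cannot be told apart in a pooled level, and 2 neighbouring classes are called apart only where the exact interval of their ratio leaves out 1.

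On the mouse build GRCm38 (GENCODE M21), *Igf1* lies at chr10:87858265-87937042 on the plus strand, *Igf1r* at chr7:67952827-68233668 on the plus strand and *Igf2r* at chr17:12682406-12769664 on the minus strand. *Igfbp3* lies at chr11:7206086-7213923 (minus), *Igfbp4* at chr11:99041244-99054392 (plus), *Igfbp6* at chr15:102144362-102149511 (plus) and *Igfbp7* at chr5:77349240-77408041 (minus). *Igfbp2*, at chr1:72824503-72852474 on the plus strand, and *Igfbp5*, at chr1:72857932-72874884 on the minus strand, are neighbours whose 3′ ends face each other across 5457 bases.

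Promoter windows of *Igfbp2*, *Igfbp5* and *Igfbp6* are shown because these genes had the highest ratios of mesothelial-like over fibroblast-like cells. Each window runs from 250 bases before to 50 bases after a RefSeq start on GRCm38.p6 (*Igfbp2* chr1:72824230-72824529, plus strand; *Igfbp5* chr1:72874816-72875115, minus strand; *Igfbp6* chr15:102143936-102144235, plus strand). The *Igfbp6* window ends before 102144362, the GENCODE start of that gene. Its RefSeq start thus lies upstream of the GENCODE gene, and which start is used here was not tested. The windows are written 5′ to 3′, with matches to the TATA box letters TATAAA or the GC box letters GGGCGG, on either strand, in capitals.
Igfbp2: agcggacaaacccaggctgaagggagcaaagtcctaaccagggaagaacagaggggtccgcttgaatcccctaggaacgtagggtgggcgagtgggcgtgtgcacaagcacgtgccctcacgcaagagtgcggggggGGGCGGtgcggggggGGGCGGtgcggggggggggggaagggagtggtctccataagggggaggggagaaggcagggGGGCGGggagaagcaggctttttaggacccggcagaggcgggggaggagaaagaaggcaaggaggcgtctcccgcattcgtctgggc
Igfbp5: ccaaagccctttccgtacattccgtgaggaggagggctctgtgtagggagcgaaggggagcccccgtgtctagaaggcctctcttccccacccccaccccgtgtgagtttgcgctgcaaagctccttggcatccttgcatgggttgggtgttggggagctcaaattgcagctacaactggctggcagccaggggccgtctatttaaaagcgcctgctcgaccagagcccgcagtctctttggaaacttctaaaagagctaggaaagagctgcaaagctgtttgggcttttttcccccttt
Igfbp6: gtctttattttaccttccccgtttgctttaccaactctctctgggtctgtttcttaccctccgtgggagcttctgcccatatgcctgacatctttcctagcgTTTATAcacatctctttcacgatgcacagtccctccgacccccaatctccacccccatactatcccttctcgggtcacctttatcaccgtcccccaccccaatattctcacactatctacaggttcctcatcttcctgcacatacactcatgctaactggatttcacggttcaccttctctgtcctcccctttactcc

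The *Igfbp2* window held 3 matches to the GC box letters and none to the TATA box letters. The *Igfbp6* window held 1 match to the TATA box letters, on the reverse strand, and none to the GC box letters. Neither string was in the *Igfbp5* window. Exact strings were counted at any position, so a match does not show a working element and variant elements are missed. The windows were 67% G or C for *Igfbp2*, 56.3% for *Igfbp5* and 49.7% for *Igfbp6*. Of 32851 promoter windows of 300 bases, 35.7% held the GC box letters and 13.6% the TATA box letters, and the median was 52.7% G or C. The 3 windows therefore did not share either string, although the 3 genes shared their highest class.

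Across the 10 classes the highest level of 8 of the 9 genes was in a mesothelial, vascular or fibroblast class, and for *Igf1r* mural-like, fibroblast-like and ductal-like cells were not apart. *Igf1*, *Igfbp2*, *Igfbp4*, *Igfbp5* and *Igfbp6* had their highest level in mesothelial-like cells, the covering layer of the organ. *Igfbp3* and *Igfbp7* were highest in blood endothelial-like cells, *Igf2r* in fibroblast-like cells and *Igf1r* in mural-like cells. The highest class stood at least 4-fold above the median class for 7 of the 9 genes, where 30.0% of the 12916 genes with at least 100 UMIs did so. Mesothelial-like cells were the highest class of 10.4% of those genes, blood endothelial-like of 12.3%, mural-like of 11.7% and fibroblast-like of 8.97%. The median ratio of highest to median class was 19.4 for the 9 genes and 2.37 for all genes, and the 2 genes under 4-fold were the receptors, *Igf1r* at 2.03 and *Igf2r* at 2.63.

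**Figure D1:**
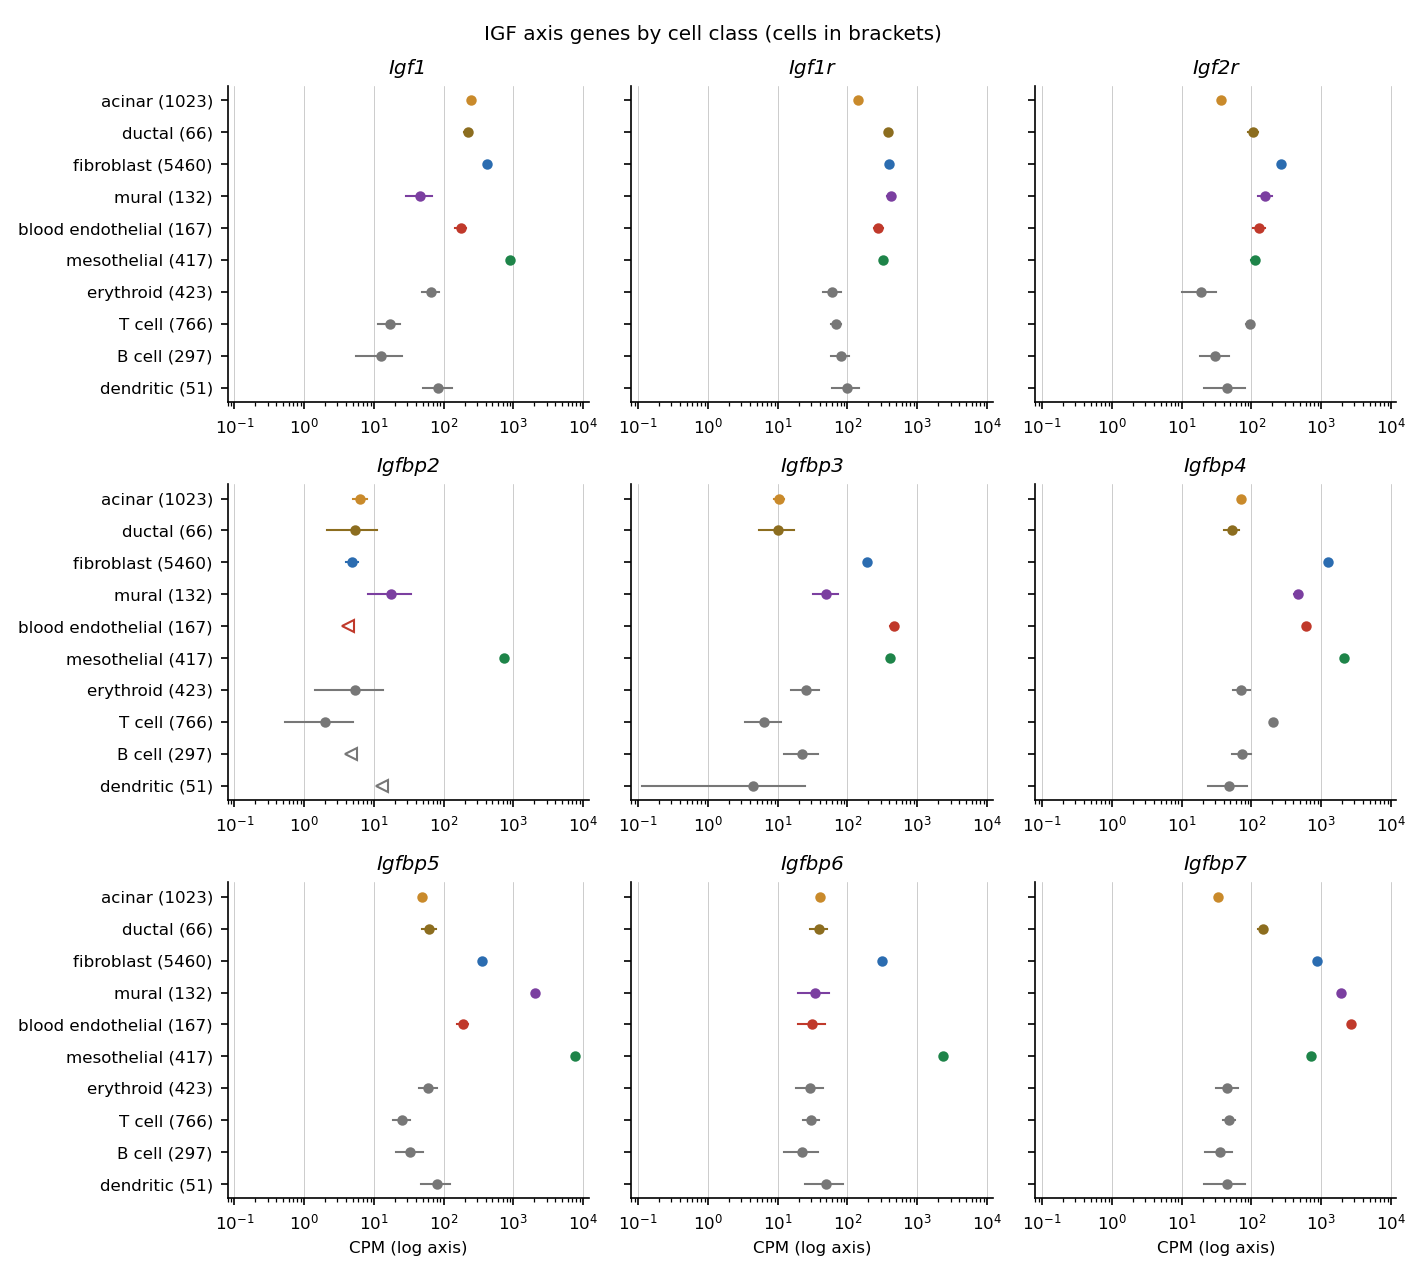
Level of each of the 9 genes in the 10 cell classes, as CPM on a log axis, with exact 95% Poisson intervals and cell numbers in brackets. Open triangles mark classes with no UMI, drawn at the level that 3 counts would give. Mesothelial-like cells are highest for 5 genes, and *Igfbp2* lies at 731 there and at most 17.8 elsewhere.

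*Igf1*, the ligand, was highest in mesothelial-like cells at 887 CPM (95% interval 850 to 925). Fibroblast-like cells followed at 422 (413 to 431), lower by a ratio of 2.10 (2.00 to 2.21). Because they were so many, fibroblast-like cells nevertheless held 50.7% of the *Igf1* UMIs of all retained cells and mesothelial-like cells 13.3%.

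*Igf1* was also present in the epithelium. The level was 251 (242 to 259) in acinar-like cells, the enzyme-secreting cells of the pancreas, and 222 (197 to 249) in ductal-like cells. Acinar-like cells held 20.1% of all *Igf1* UMIs. With the UMIs of acinar secretory genes left out of the totals their level was 497, above the 426 of fibroblast-like cells. RNA released from broken cells adds UMIs to every droplet. Its level was taken as the lowest of the erythroid-like, T cell-like and B cell-like levels per collagen UMI, scaled by collagen UMIs. The collagen level used was capped at a fixed multiple of the median of those classes. Fibroblast-like, mural-like, blood endothelial-like and mesothelial-like cells were all at the cap. In acinar-like cells the free RNA estimate was 14.3 for *Igf1*. Acinar-like cells exceeded T cell-like cells, which had 16.8 (11.6 to 23.4), by a ratio of 14.9 (10.7 to 21.6).

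Acinar-like cells varied widely in depth, so *Igf1* was also read in 2 depth ranges. The 354 acinar-like cells with 10000 UMIs or more had 262 CPM of *Igf1* (252 to 273) and the 669 below that had 206 (189 to 224), so the signal was not limited to the deepest barcodes. A UMI of *Igf1* was found in 67.0% of acinar-like cells (64.0 to 69.8) and, after each cell was thinned to 800 UMIs, in 18.5% (16.1 to 21.0). The same thinned share was 26.0% in fibroblast-like and 44.1% in mesothelial-like cells, against 1.57% in T cell-like and 0.673% in B cell-like cells. No single acinar-like cell carried more than 0.871% of the class's *Igf1* UMIs.

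Ductal-like cells did not keep their place in this order. With the study's limit of 10000 UMIs, which left 33 of the 66, their *Igf1* level was 110 (65.1 to 174), and after thinning 9.09% of ductal-like against 12.0% of blood endothelial-like cells had a UMI. One ductal-like cell held 12.1% of the class's *Igf1* UMIs. Blood endothelial-like cells had 177 (147 to 211), of which 1 cell held 11.3%. Dendritic-like cells were at 83.8, erythroid-like at 65.5 and mural-like at 45.6, and these neighbours were not apart. In erythroid-like cells 1 cell held 30.6% of the 49 *Igf1* UMIs, and in dendritic-like cells 1 cell held 47.4% of 19.

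*Igf1r*, the signalling receptor, was the most evenly spread of the 9 genes. It measured 426 (371 to 487) in mural-like, 396 (388 to 405) in fibroblast-like and 383 (350 to 418) in ductal-like cells, with no neighbours in that order apart. Mesothelial-like cells followed at 326 (303 to 349) and blood endothelial-like cells at 276 (239 to 318). Which class was highest was not stable, since leaving out the 1 richest cell of each class put fibroblast-like cells first, and ductal-like cells came first with an upper limit of 10000 UMIs, with the mean of per-cell CPM or with free RNA subtracted.

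Within the epithelium *Igf1r* separated duct from acinus. Ductal-like cells had 2.67 times (2.41 to 2.95) the *Igf1r* level of acinar-like cells, which stood at 144 (137 to 150), and 86.4% of ductal-like against 46.7% of acinar-like cells had a UMI. After thinning the shares were 31.8% and 8.60%. The median depth was 10038 UMIs per ductal-like and 5373 per acinar-like cell, and 27.6% of acinar-like UMIs came from the 6 acinar marker genes alone, which lowers the level of every other gene there. The *Igf1r* ratio was 1.42 with secretory UMIs left out of the totals and 4.75 (3.64 to 6.15) with the limit of 10000 UMIs. In the 4 blood classes of at least 50 cells *Igf1r* ranged from 60.1 in erythroid-like to 97.0 in dendritic-like cells with no neighbours apart. The free RNA estimate for those classes was 49.9 to 69.3. Erythroid-like cells set that estimate, so it cannot tell expression from free RNA in them.

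*Igf2r* was highest in fibroblast-like cells at 265 (258 to 273), ahead of mural-like cells at 159 (126 to 197) by a ratio of 1.67 (1.34 to 2.11). Fibroblast-like cells held 67.9% of its UMIs. Blood endothelial-like cells at 130, mesothelial-like at 113, ductal-like at 106 and T cell-like at 95.7 formed a series in which no neighbours were apart. For *Igf2r* the T cell-like cells stood above free RNA, estimated there at 15.5, while B cell-like cells were at 30.2 (18.2 to 47.2). Ductal-like cells exceeded acinar-like cells, at 36.3, by a ratio of 2.92 (2.40 to 3.54), or 1.56 with secretory UMIs left out. The free RNA estimate was 18.0 in acinar-like and 14.3 in ductal-like cells.

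*Igfbp2* was measured mainly in mesothelial-like cells. It measured 731 (698 to 767) in mesothelial-like cells, 17.8 (8.16 to 33.9) in mural-like cells and 4.88 (3.94 to 5.97) in fibroblast-like cells. Blood endothelial-like cells had 0 of 702058 UMIs, where 3 counts would be a level of 4.27, and B cell-like and dendritic-like cells had 0 as well, where 3 counts would be 4.77 and 13.2. Mesothelial-like cells exceeded fibroblast-like cells 150-fold (122 to 186) and held 72.5% of the *Igfbp2* UMIs. The fibroblast-like level was not apart from the 5.34 (1.46 to 13.7) of erythroid-like cells. With 0 UMIs in B cell-like cells the free RNA estimate for *Igfbp2* was 0. The 150-fold ratio therefore cannot tell fibroblast expression from free RNA in its denominator.

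Mesothelial-like cells differed among themselves in UMIs of *Igfbp2* per cell, and the part of depth in this was not tested. After thinning 32.6% of them had a UMI. With all UMIs, 56.4% of them had 1 or more, the median cell had 1 UMI, the top 10% had at least 11 and the richest cell had 133, or 7.60% of the class's UMIs. All 9 *Igfbp2* UMIs of the mural-like class came from smooth muscle-like cells. The 1226 cells that passed no gate had 110 CPM of *Igfbp2* and held 11.8% of its UMIs, more than any class other than mesothelial-like cells.

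*Igfbp5*, the neighbour of *Igfbp2*, was also highest in mesothelial-like cells, at 7577 (7467 to 7688), 21.6-fold (21.0 to 22.2) over fibroblast-like cells. The median mesothelial-like cell had 23 *Igfbp5* UMIs, and 90.4% of these cells still had 1 after thinning. Unlike *Igfbp2*, it had a clear further site, mural-like cells at 2037 (1915 to 2166).

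Within the mural-like class *Igfbp5* followed smooth muscle. The 72 smooth muscle-like cells had 2491 (2326 to 2664) and the 43 pericyte-like cells 721 (580 to 887), a ratio of 3.45 (2.78 to 4.34). No other binding protein gene except *Igfbp3*, at 0.336 (0.134 to 0.832), had a smooth muscle over pericyte ratio whose interval left out 1. The *Igfbp3* ratio rested on 11 against 12 UMIs, and 1 pericyte-like cell held 8 of the 12. *Igfbp5* was 351 (342 to 359) in fibroblast-like cells and 188 (157 to 223) in blood endothelial-like cells (311 with 1 marker more required), and from 25.2 to 79.4 in the other 6 classes. In dendritic-like cells 1 cell held 61.1% of the *Igfbp5* UMIs.

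*Igfbp6*, whose product prefers IGF-II, was a gene of 2 classes. It measured 2317 (2256 to 2379) in mesothelial-like cells and 315 (307 to 323) in fibroblast-like cells, a ratio of 7.36 (7.09 to 7.63). The other 8 classes lay between 22.3 and 48.5 with no neighbours apart, although the 33 ductal-like cells under 10000 UMIs were at 104 (60.5 to 166). *Igfbp6* was found in 98.8% of mesothelial-like cells, and in 79.1% after thinning, against 20.1% of fibroblast-like and at most 6.06% of other cells after thinning. In the vessel wall it measured 31.3 in blood endothelial-like and 33.7 in mural-like cells, neither above the free RNA estimate.

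*Igfbp4* was spread over the mesothelial, fibroblast and vascular classes. It measured 2138 (2080 to 2197) in mesothelial-like, 1241 (1225 to 1256) in fibroblast-like, 601 (545 to 661) in blood endothelial-like and 462 (404 to 525) in mural-like cells, each apart from the next. Fibroblast-like cells held 64.3% of its UMIs and 91.7% of them had a UMI. T cell-like cells had 204 (185 to 224), 2.79 times (2.05 to 3.87) the level of B cell-like cells, and 31.5% of them had a UMI against 9.43%. The free RNA estimate in T cell-like cells was 59.9. In the other 5 classes *Igfbp4* lay between 48.5 and 73.1 with no neighbours apart. Under the limit of 10000 UMIs ductal-like cells were at 147 (93.9 to 218) and acinar-like cells at 109 (97.2 to 123). With all retained cells the free RNA estimate was 69.3 of 72.2 in acinar-like cells and all of 53.0 in ductal-like cells. No such estimate was made under the limit, so these levels cannot tell epithelial expression from free RNA.

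*Igfbp3*, the main IGF carrier of blood, was highest in blood endothelial-like cells at 462 (413 to 515) and in mesothelial-like cells at 408 (383 to 434), which were not apart. Fibroblast-like cells had 191 (185 to 197), lower than mesothelial-like cells by a ratio of 2.14 (1.99 to 2.29). Endothelial expression was uneven, since 48.5% of the cells had a UMI, the median cell had 0 and 1 cell held 12.0% of the UMIs. Mural-like cells had 49.5 and acinar-like cells 10.4. The barcodes that passed gates of 2 lineages carried 22.7% of all *Igfbp3* UMIs, a share that the class levels leave out.

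*Igfbp7*, which marks vascular tissue and binds IGFs weakly, had its highest levels in the vessel wall. It measured 2705 (2585 to 2829) in blood endothelial-like and 1932 (1813 to 2058) in mural-like cells, and both smooth muscle-like cells at 1971 and pericyte-like cells at 1707 were high. Of its UMIs, 55.8% lay in fibroblast-like cells, 6.21% in blood endothelial-like and 3.19% in mural-like cells, and 20.8% in barcodes of 2 lineages. Fibroblast-like cells had 886 (873 to 900) and mesothelial-like cells 711 (678 to 746), so *Igfbp7* was the 1 binding protein gene lower in mesothelial-like than in fibroblast-like cells, at a ratio of 0.803 (0.763 to 0.844). Ductal-like cells had 146 (126 to 168), 4.45 times (3.73 to 5.30) the level of acinar-like cells, but 1 ductal-like cell held 12.6% of these UMIs and the ratio was 2.58 (1.5 to 4.2) with the limit of 10000 UMIs and 2.38 with secretory UMIs left out. The acinar-like level of 32.8 was all within the free RNA estimate, so the ratio cannot tell acinar expression from free RNA in its denominator.

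Classes under 50 cells are given only as values. *Igf1r* measured 483 (303 to 731) in the 21 neutrophil-like cells, on 22 UMIs of which 1 cell held 6. It measured 439 (323 to 584) in the 48 Schwann-like and 145 (72.4 to 259) in the 17 macrophage-like cells. *Igf1* measured 237 (141 to 375) in macrophage-like cells, on 18 UMIs. The 48 Schwann-like cells had 1027 CPM of *Igfbp7* (844 to 1238). The 12 lymphatic endothelial-like cells had 191 (140 to 254), below blood endothelial-like cells by a ratio of 14.2 (10.6 to 19.5). They had more *Igfbp5* than blood endothelial-like cells, 907 against 188, but 1 of the 12 held 54.8% of it.

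**Figure D2:**
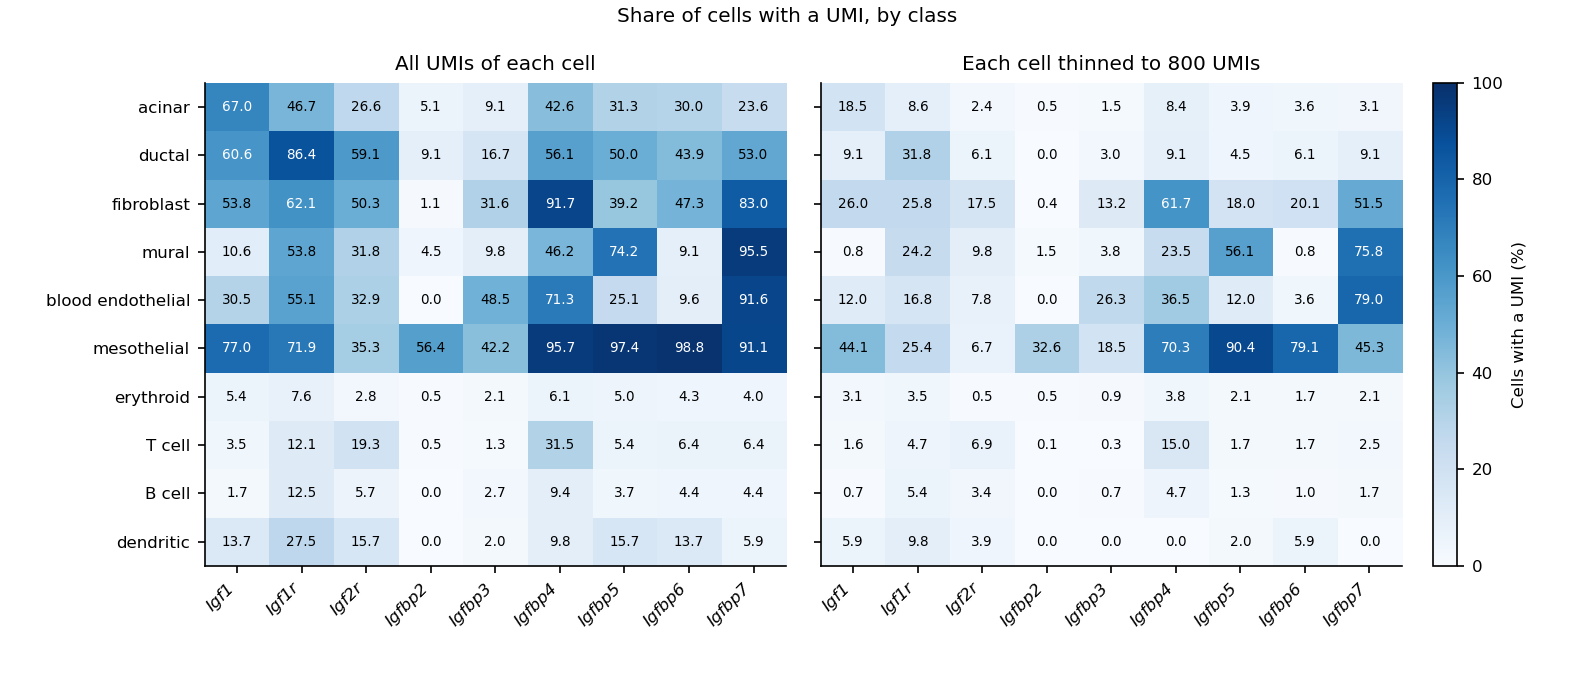
Percent of cells in each class with at least 1 UMI of each gene, with all UMIs (left) and after thinning every cell to 800 UMIs (right). In the mesothelial-like row 97.4% of cells had *Igfbp5* and 90.4% after thinning, whereas *Igf1* in acinar-like cells went from 67.0% to 18.5%.

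UMIs of several binding protein genes were found together in mesothelial-like cells. The median mesothelial-like cell had UMIs of 5 of the 6 *Igfbp* genes measured here, 97.8% had at least 3 and 92.8% at least 4. In fibroblast-like cells the median was 3, with 66.1% at 3 or more and 29.1% at 4 or more. The median depth was 4211 UMIs per mesothelial-like and 2757 per fibroblast-like cell, and its part in these counts was not tested. The ratios of pooled levels do not carry that difference. They were below 1 for *Igf1r* at 0.821, *Igf2r* at 0.425 and *Igfbp7* at 0.803, and above 1 for the others. The share of all genes above 1 was not computed.

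**Figure D3:**
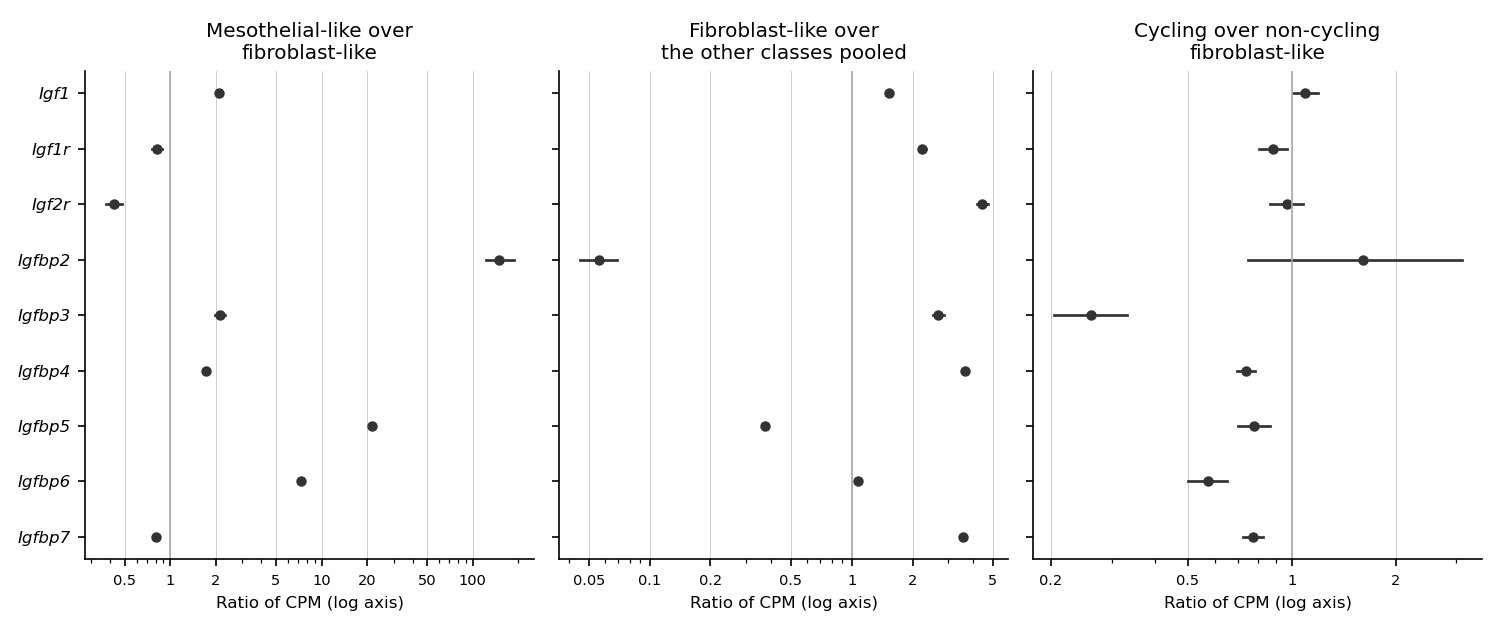
Ratio of CPM for the 9 genes in 3 comparisons, on log axes that differ between panels, with exact 95% intervals and a line at 1. *Igfbp2*, *Igfbp5* and *Igfbp6* lie far to the right for mesothelial-like over fibroblast-like cells, and *Igfbp3* lies lowest for cycling over non-cycling fibroblast-like cells.

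Against the other 9 classes pooled, fibroblast-like cells had at least 2-fold more of 5 of the 9 genes, *Igf2r*, *Igfbp4*, *Igfbp7*, *Igfbp3* and *Igf1r*, where 19.3% of all tested genes reached 2-fold. The ratios were 4.42 (4.16 to 4.71) for *Igf2r*, 3.63 (3.54 to 3.73) for *Igfbp4* and 3.54 (3.43 to 3.65) for *Igfbp7*. *Igfbp3* was at 2.68 (2.53 to 2.85) and *Igf1r* at 2.24 (2.15 to 2.33). *Igf1* reached 1.53 and *Igfbp6* 1.08, while *Igfbp5* at 0.372 and *Igfbp2* at 0.0562 were lower in fibroblast-like cells. With the limit of 10000 UMIs the ratio of *Igfbp3* was 1.67 (1.56 to 1.79), under 2-fold, and that of *Igfbp6* turned to 0.714 (0.685 to 0.744). The pooled cells were mostly acinar by UMIs, 12823432 of 21356172. When each of the 9 classes counted equally, the genes at 2-fold were 3, *Igf1*, *Igf2r* and *Igfbp4*, among 9.60% of all genes. *Igf2r* and *Igfbp4* were thus the members at 2-fold under both weightings.

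The fibroblast-like cells held 3 subsets gated by marker pairs, 420 *Rspo3*/*Cxcl14*, 1514 *Mfap4*/*Meox2* and 769 *Pi16*/*Pcolce2* cells, while 2757 of the 5460 fell in no subset. All but the receptors, 7 of the 9 genes, differed at least 2-fold between the highest and lowest subset, against 21.5% of tested genes. One of them, *Igfbp2*, rested on few UMIs, and the others split in 2 directions. *Igf1*, *Igfbp3*, *Igfbp4* and *Igfbp7* were lowest in the *Pi16*/*Pcolce2* subset, and *Igfbp5* and *Igfbp6* were highest there. Both receptors were also lowest in that subset. The share of all genes lowest or highest in it was not computed.

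*Igf1* measured 581 (546 to 618) in the *Rspo3*/*Cxcl14*, 498 (479 to 517) in the *Mfap4*/*Meox2* and 168 (155 to 181) in the *Pi16*/*Pcolce2* subset. The first of these exceeded the last by a ratio of 3.47 (3.14 to 3.83). *Igfbp3* had the widest spread, at 307, 283 and 46.8 in the same order, with the first 2 not apart. Their ratios to the *Pi16*/*Pcolce2* cells were 6.56 (5.54 to 7.81) and 6.05 (5.18 to 7.09). Of *Igfbp3* UMIs no cell of any subset held more than 3.78%.

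*Igfbp4* and *Igfbp7* were highest in the *Mfap4*/*Meox2* subset. *Igfbp4* measured 1284, 1494 and 681 in the order above, a ratio of 2.19 (2.10 to 2.29) between the last 2. *Igfbp7* measured 1013, 1263 and 330, a ratio of 3.82 (3.60 to 4.06).

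*Igfbp5* and *Igfbp6* ran the other way. *Igfbp5* measured 400 in *Rspo3*/*Cxcl14*, 195 in *Mfap4*/*Meox2* and 615 in *Pi16*/*Pcolce2* cells, and *Igfbp6* measured 250, 126 and 518. The *Mfap4*/*Meox2* level was 0.318 (0.295 to 0.342) of the *Pi16*/*Pcolce2* level for *Igfbp5* and 0.243 (0.223 to 0.265) for *Igfbp6*. These were the 2 genes whose highest subset was *Pi16*/*Pcolce2*. Both were higher in mesothelial-like than in fibroblast-like cells, but so were *Igf1*, *Igfbp3* and *Igfbp4*, which were lowest in that subset. One *Pi16*/*Pcolce2* cell held 182 *Igfbp5* UMIs, 7.57% of that subset's total.

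The receptors varied less between subsets. *Igf1r* measured 441, 396 and 368 and *Igf2r* 340, 269 and 219, both in the order *Rspo3*/*Cxcl14*, *Mfap4*/*Meox2*, *Pi16*/*Pcolce2*. The highest over lowest ratio was 1.20 (1.10 to 1.31) for *Igf1r* and 1.55 (1.40 to 1.73) for *Igf2r*. *Igfbp2* passed 2-fold on 4, 36 and 22 UMIs, of which 1 *Pi16*/*Pcolce2* cell gave 13, and its levels of 2.32 to 6.62 are too low to order the subsets.

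**Figure D4:**
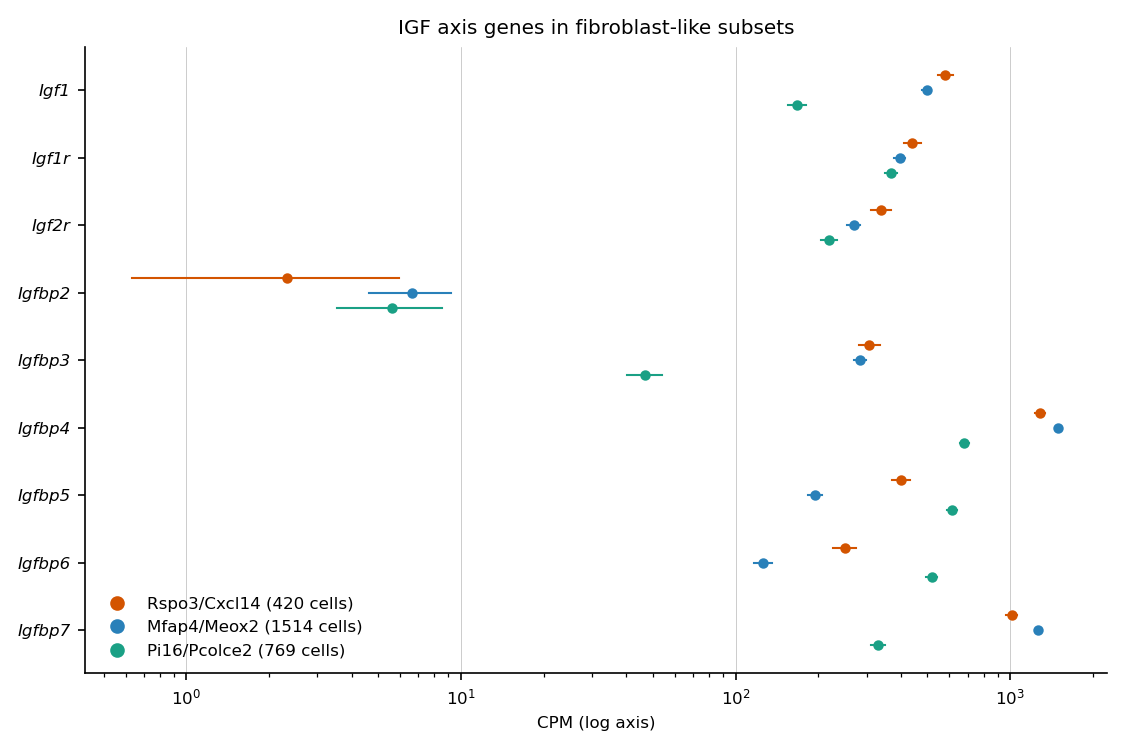
Level of the 9 genes in 3 subsets of fibroblast-like cells, as CPM on a log axis with exact 95% Poisson intervals. The *Pi16*/*Pcolce2* cells lie lowest for *Igf1* (168), *Igfbp3* (46.8), *Igfbp4* (681) and *Igfbp7* (330) and highest for *Igfbp5* (615) and *Igfbp6* (518).

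Cycling fibroblast-like cells, the 222 with at least 2 of *Mki67*, *Top2a*, *Cenpf* and *Birc5*, were set against the other 5238. The median ratio of cycling over non-cycling cells was 0.776 for the 9 genes and 1.01 for all tested genes. The share of all genes below 1 was not computed. The genes *Igfbp2*, *Igfbp3* and *Igfbp6*, 3 of the 9, differed at least 1.5-fold either way, where 32.0% of tested genes did, so the count itself is close to the background. *Igfbp3* was 201 (195 to 208) in non-cycling and 52.7 (41.1 to 66.6) in cycling cells, a ratio of 0.262 (0.204 to 0.332). *Igfbp6* was 325 in non-cycling and 185 in cycling cells, a ratio of 0.571 (0.501 to 0.649). *Igfbp2* rested on 10 UMIs in the cycling cells, 7 of them in 1 cell, and its interval of 0.744 to 3.11 included 1.

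*Igf1* itself, at a ratio of 1.09 (1.00 to 1.19), and *Igf2r*, at 0.966 (0.863 to 1.08), were among the genes closest to 1. *Igf1r* was at 0.882 (0.802 to 0.969). *Igfbp4*, *Igfbp5* and *Igfbp7* stood at 0.737, 0.776 and 0.771, each with an interval below 1. Cycling cells had a median of 4380 UMIs and the others 2710, and 10.8% of cycling against 3.13% of the others had a UMI of the leukocyte gene *Ptprc*; the part of either in these ratios was not tested. In mesothelial-like cells, where 39 had cycling markers, *Igfbp5* was 4706 (4511 to 4907) in those and 8274 (8146 to 8403) in the rest. *Igf1*, *Igf1r*, *Igfbp4*, *Igfbp6* and *Igfbp7* were also lower in the 39 cells, while *Igf2r*, *Igfbp2* and *Igfbp3* were higher. *Igfbp2* was 852 (770 to 940) in those and 702 (665 to 741) in the rest. One of the 39 cells held 12.8% of their *Igfbp5* and 33.4% of their *Igfbp2* UMIs was in 1 cell. Median depth was 9510 UMIs in the 39 and 3924 in the rest.

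Of 21 other genes of the pathway, 17 had at least 100 UMIs, and *Igfbp1*, *Igfbpl1*, *Pappa2* and *Insrr* did not (*Igfbp1* had 0 UMIs in the 10 classes). Their highest class exceeded the median class at least 4-fold for 7 of 17, against the 30.0% of all genes. The other ligand, *Igf2*, was a fibroblast gene here, at 1930 CPM in fibroblast-like cells and 70.6 in mesothelial-like cells, the opposite order to *Igf1*. *Igf2* was also 0.577-fold in cycling relative to non-cycling fibroblast-like cells.

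*Ghr*, the growth hormone receptor upstream of *Igf1* in many tissues, was highest in acinar-like cells at 703, with 260 in both ductal-like and fibroblast-like cells and 166 in mesothelial-like cells. *Pappa*, a protease that cleaves IGFBP4 and thereby frees IGF, was highest in fibroblast-like cells at 115, followed by mesothelial-like cells at 77.7, the 2 classes highest in *Igfbp4*. The protease gene *Htra1* measured 298 in fibroblast-like and 297 in mesothelial-like cells. *Stc1*, whose product inhibits PAPP-A, was highest in blood endothelial-like cells at 72.6.

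The adaptor genes were less alike. *Irs1* was highest in fibroblast-like cells at 139 and *Irs2* in mural-like cells at 176. At least 2-fold higher in fibroblast-like cells than in the other classes pooled were 7 of the 17 genes, against 19.3% of all genes. They were *Igf2*, *Pappa*, *Htra1*, *Irs1*, *Irs2*, *Shc1* and *Grb10*. The pooled classes were mostly acinar by UMIs. This count of 7 was not repeated with secretory UMIs left out or with the classes weighted equally. *Insr*, the insulin receptor gene, ranged from 61.0 to 106 outside the erythroid-like, T cell-like and B cell-like cells, where it was 6.68, 30.1 and 55.6. Between the fibroblast subsets 8 of the 17 differed at least 2-fold, against 21.5% of all genes. Some of the 8 rested on few UMIs in the *Rspo3*/*Cxcl14*, *Mfap4*/*Meox2* and *Pi16*/*Pcolce2* cells. *Igfals* had 4, 1 and 3 UMIs there, *Stc1* 8, 72 and 16 and *Stc2* 3, 50 and 4. *Pappa*, also among the 8, measured 195, 144 and 47.1 CPM in the same order. *Pappa* and *Igf1* were therefore both lowest in the *Pi16*/*Pcolce2* cells.

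The genes most like 8 of the members were taken by the Pearson correlation of log2(CPM + 10) over the 10 classes, among 8382 genes with at least 500 UMIs, with members and gating markers left out. They were *Rspo1*, *Fmod* and *C3* for *Igfbp2* (r from 0.975 to 0.985), *Etv1*, *Zbtb7c* and *Hspa1a* for *Igfbp5* (0.968 to 0.988) and *Sbsn*, *Podn* and *Wt1os* for *Igfbp6* (0.977 to 0.987). *Igfbp3* was nearest to *Epha4*, *Npr1* and *Dab2*, and *Igfbp7* to *Rusc2*, *Kctd17* and *Smtn*. *Igf1r* was nearest to *Parva*, *Fosb* and *Cc2d2a*, and *Igf2r* to *Sept2*, *Klhdc2* and *Alas1*. *Igf1* had the lowest best match, *Creb3l1* at 0.927, followed by *Tmem150a* and *Ctsl*. Among pairs of members the highest correlation was that of *Igfbp3* with *Igfbp4* at 0.878, followed by *Igfbp2* with *Igfbp6* at 0.863, and the lowest that of *Igf2r* with *Igfbp2* at 0.226. All points of these correlations come from 1 library and share its depth and free RNA.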

How the data were processed

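The authors digested the pooled pancreata with collagenase, depleted dead cells and made a 10x 3′ library, which they processed against mm10 in Cell Ranger 7.1.0. They deposited counts, whole UMIs per gene and barcode (51540177 UMIs). The default counting of this release includes intronic reads, which bears on long genes such as *Igf1r*. Antisense reads, as from *Airn* over *Igf2r*, are excluded by strand. The study's limit of 10000 UMIs was replaced by 100000, and its ambient RNA removal was not repeated.

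Marker gates were set on the markers alone. Acinar-like and erythroid-like cells needed 10% of UMIs from their list, fibroblast-like cells 5 of 7 markers with 1% of UMIs and 0.1% from *Pdgfra*, *Dpt* and *Lum*, and other classes 3 markers with 0.1%. Cells of 2 lineages were left out, which was the treatment of doublets, and 1226 (11.2%) passed no gate. Subset cells needed 2 UMIs of their marker pair and at least 2 times those of the other pairs. Scrublet (scanpy 1.11.5, expected rate 0.08) marked 592 cells (5.41%), which were left out as an alternative.

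UMIs were summed by class. Intervals are exact Poisson, exact Clopper-Pearson for shares and exact conditional binomial for ratios, at 95%. The Poisson and ratio intervals were checked on simulated Poisson counts. Those counts hold no clumping of UMIs in single cells, so the check does not cover it. In folds, denominators under 3 counts were set to 3. Thinning drew 800 UMIs per cell. Every member was named, the pathway genes by a list, and 3 most alike genes per member by correlation, which for *Igfbp4* are not reported here. Members and lists were chosen with earlier results of these data known. Promoters came from RefSeq (GRCm38.p6), where all 9 genes had an entry. For *Igfbp2*, with 2 entries, the window nearest the gene start was used. Software was scipy 1.17.1, numpy 2.4.6, pandas 2.3.3 and matplotlib 3.10.9 under Python 3.11.15.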

Additional observations from a re-analysis of the deposited data

How the results depend on the processing

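With 1 library nothing estimates the spread between mice, and intervals cover counting error only. The highest class was unchanged in 77 of 81 checks, 9 genes under 9 alternatives of filter, gate, doublet, denominator, averaging, free RNA and richest cell, and the 4 exceptions were all *Igf1r*, the flattest gene. The count of genes at least 2-fold higher in fibroblast-like cells, 5, was the least stable. It was 3 with acinar secretory UMIs out of the denominator (11.6% of all genes), 3 with the other classes weighted equally (9.60%), 4 with the study's limit of 10000 UMIs (18.8%), 6 with the mean of per-cell CPM (20.4%), 6 at a 1.5-fold limit (32.8%) and 1 (*Igf2r*) at a 4-fold limit (7.86%). Both the equal weighting and the removal of the richest cell were chosen after seeing the data. At a 4-fold limit 2 genes (*Igfbp3* and *Igfbp6*) differed between fibroblast subsets, against 5.37% of all genes, and at a 2-fold limit 1 gene (*Igfbp3*) differed with cycling markers, against 15.2%. The count of genes 4-fold over the median class stayed at 7 in every alternative other than the limits of 2 (9 genes, 61.4% of all genes) and 8 (6 genes, 17.6%). Of 810 class levels recomputed, 611 stayed within the counting interval of the reported value. Levels in the highest class ranged from 323 to 482 for *Igf1r*, 406 to 615 for *Igfbp3* and 7266 to 8098 for *Igfbp5*.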
